A study of Mus musculus with 9 samples.

Results

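The genes described here are the alpha-defensins, lysozymes and companion secreted products that mark Paneth cells, in small intestinal organoids and in tumoroids of the mouse. Members were the rows of the count table named Defa with a number, together with AY761184, Lyz1, Lyz2, Ang4, Itln1, Mptx1 and Mptx2, that held at least 1 read in any library. The rule named 29 rows. Defa23, Defa25 and Defa33 had no read in any of the 9 libraries, which left 26 members of the 50600 genes in the table. Of these, 20 lie in the alpha-defensin cluster (19 Defa genes and AY761184) and 6 do not.

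The organoids were grown from normal small intestine of WT mice of the C57BL/6 strain, 2 to 5 months old, and were exposed for 24 hr to conditioned medium mixed with fresh medium holding EGF, Noggin and R-spondin. By title, 3 libraries received medium from tumoroids (T-cM-titled) and 3 received medium from organoids (WT-cM-titled). By the methods, tumoroids were kept in medium without R-spondin and organoids conditioned medium that held it. The conditioning times given also differ. Source cells, carried-over R-spondin and conditioning time cannot be told apart between the 2 organoid groups. The tumoroids (3 libraries) came from intestinal tumours of Apc1638N/+ mice, with the strain given as MIX, more than 6 months old, and were left untreated in medium without R-spondin. Each group was drawn from 3 different mice. The paper describes the profiled tumoroids as the source of the tumoroid medium, without saying which library matches which. The study's methods also name tumour mice crossed to the R26mTmG reporter and organoids from LifeAct-GFP mice, without saying whether these libraries came from them. The treatment field of each organoid library names the opposite medium from its title, so every direction between the 2 organoid groups below turns round if that field is right. The strain of the organoid mice is C57BL/6 in the labels, whereas the methods describe a mixed background for every mouse used. Age, medium, Apc genotype and any difference of strain between tumoroids and organoids cannot be told apart.

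Paneth cells sit at the base of small intestinal crypts, next to the stem cells. They release granules of antimicrobial proteins into the crypt lumen and supply growth signals to the stem cells. Alpha-defensins, called cryptdins in the mouse, are made as inactive precursors that the metalloproteinase Mmp7 cuts into short cationic peptides that damage bacterial membranes. Lysozyme, of which Lyz1 is the Paneth cell form and Lyz2 the form of macrophages and other myeloid cells, splits the bacterial cell wall. Ang4 is a secreted ribonuclease with antimicrobial activity, Itln1 is an intestinal lectin that binds microbial sugars, and Mptx1 and Mptx2 are mucosal pentraxins.

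The cluster lay on chromosome 8, and its 23 named rows ran from Defa21 to Defa24 at chr8:21025545-21735471 (GRCm38, the same assembly as mm10). Its members are copies of one another, and this limits what a count of any single copy means. Across the 171 pairs of Defa members, the coding sequences were between 62.4% and 100% identical, with a median of 83.5%, and 25 pairs reached at least 95%. Defa29 stood furthest from the rest (mean identity 64.2%), and its nearest relative was AY761184, at 96.6%. Defa3 and Defa17 had the same 279 coding bases, as did Defa36 and Defa37, while Defa20 and Defa32 shared all 285. Outside the cluster, Lyz1 and Lyz2 were 95% identical over 444 coding bases, and Mptx1 and Mptx2 were 91.9% identical.

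To see which members a single read can tell apart, every stretch of 100 bases, the read length of this study, was looked up in the transcripts of all other annotated genes. Reads were paired, and a pair can separate copies where single stretches do not, which was not counted. Defa24, AY761184, Ang4 and Itln1 had only stretches of their own (100% unique). Defa30 (99.7%), Defa26 (98.9%), Lyz2 (98%), Lyz1 (97.9%), Mptx1 and Mptx2 (both 96.7%) and Defa29 (89%) were nearly as distinct. Defa35 was 76.6% unique and shared the rest with Defa34, Defa36, Defa37 and Defa5. Defa21, Defa22 and Defa28 were 59.6%, 59.7% and 59.8% unique. Defa34 (25%), Defa3 (13.2%), Defa5 (11.9%) and Defa17 (9.4%) shared most of theirs, and Defa2, Defa20 and Defa32 shared nearly all, with 0%, 0.307% and 0.307% unique. How reads that match several copies were counted is not given in the sources used here, so the values of these last 7 genes are best read together with those of their copies.

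The coding sequences of 3 close copies are shown because their values parted in tumoroids (below). They are written 5′ to 3′ without the stop codon, from the annotation on GRCm38, and capitals mark the bases that differ from Defa34.
Defa34: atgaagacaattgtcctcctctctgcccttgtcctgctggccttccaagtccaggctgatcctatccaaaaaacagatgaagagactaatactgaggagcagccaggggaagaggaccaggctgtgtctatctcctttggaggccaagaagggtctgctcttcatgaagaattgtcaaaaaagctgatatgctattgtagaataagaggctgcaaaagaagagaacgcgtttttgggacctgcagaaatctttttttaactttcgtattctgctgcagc
Defa5: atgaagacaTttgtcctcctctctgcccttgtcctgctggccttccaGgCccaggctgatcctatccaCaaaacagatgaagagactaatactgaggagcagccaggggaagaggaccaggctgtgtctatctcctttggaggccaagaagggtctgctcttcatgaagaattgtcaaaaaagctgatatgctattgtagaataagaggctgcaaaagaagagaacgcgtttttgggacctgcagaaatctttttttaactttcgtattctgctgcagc
Defa35: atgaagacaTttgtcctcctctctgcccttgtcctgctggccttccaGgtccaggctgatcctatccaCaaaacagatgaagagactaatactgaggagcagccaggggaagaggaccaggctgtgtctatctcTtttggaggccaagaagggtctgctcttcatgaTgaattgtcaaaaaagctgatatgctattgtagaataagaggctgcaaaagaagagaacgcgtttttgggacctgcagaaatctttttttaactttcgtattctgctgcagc
Defa5 differed from Defa34 at 4 of 279 bases and Defa35 at 5.

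The last 120 coding bases, which hold the mature peptide, are shown for Defa24, the most abundant member, and its nearest abundant relatives, with capitals for bases that differ from Defa24.
Defa24: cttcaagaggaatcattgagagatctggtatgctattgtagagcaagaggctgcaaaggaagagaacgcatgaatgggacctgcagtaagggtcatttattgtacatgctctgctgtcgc
Defa30: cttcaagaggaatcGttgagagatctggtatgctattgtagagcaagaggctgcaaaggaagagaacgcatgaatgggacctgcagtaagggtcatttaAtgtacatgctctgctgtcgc
Defa17: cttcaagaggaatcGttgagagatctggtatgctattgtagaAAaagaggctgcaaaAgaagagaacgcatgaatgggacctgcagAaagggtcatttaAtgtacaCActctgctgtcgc
Defa30 differed from Defa24 at 2 of these bases and Defa17 at 8, and Defa3 was identical to Defa17. For the Defa21 and Defa22 pair, shown because among the defensins its level had the highest ratio of organoid replicate 1 to the others in WT-cM-titled medium, capitals mark the base of Defa22 that differs from Defa21.
Defa21: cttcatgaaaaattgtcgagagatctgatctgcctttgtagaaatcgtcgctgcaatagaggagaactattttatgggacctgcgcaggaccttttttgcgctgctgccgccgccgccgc
Defa22: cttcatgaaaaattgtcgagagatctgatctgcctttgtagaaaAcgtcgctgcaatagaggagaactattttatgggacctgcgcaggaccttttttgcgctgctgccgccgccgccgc

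Promoters from RefSeq (GRCm38.p6, 250 bases before to 50 after the start) were found for 17 of the 26 members, 11 of them Defa genes. The letters CTTTGAT, a core motif of the TCF factors that act in Wnt signalling, were searched on both strands. They occurred in the promoter of all 11 Defa members, and in none of Lyz1, Lyz2, Ang4, Itln1, Mptx1 and Mptx2, against 3.73% of the 32851 promoters searched. Many of the 11 are copies of one another (below), so they do not count as 11 independent matches. In 7 of the 11 the motif was present 2 times (0.1% of all promoters held at least 2), and in Defa30, Defa28, Defa36 and Defa37 it was present 1 time. A match of letters is a description of the sequence and not a measured site. The 150 bases before the annotated start are shown for 5 members, among them Defa35, which rose in tumoroids, Defa30, Defa22 and Defa2, which fell, and Defa36, which had almost no reads, on the plus strand of chromosome 8, with CTTTGAT (which reads ATCAAAG here) and the TATAAA box in capitals. TATAAA, which does not overlap CTTTGAT in these windows, occurred in 13.6% of all promoters. The E-box letters CAGCTG occurred in Defa28, Lyz1 and Lyz2 and in 16.3% of all promoters.
Defa22, chr8:21162127-21162276: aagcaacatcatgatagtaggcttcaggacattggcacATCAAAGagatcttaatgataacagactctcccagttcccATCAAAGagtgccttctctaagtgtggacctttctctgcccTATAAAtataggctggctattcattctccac
Defa2, chr8:21378367-21378516: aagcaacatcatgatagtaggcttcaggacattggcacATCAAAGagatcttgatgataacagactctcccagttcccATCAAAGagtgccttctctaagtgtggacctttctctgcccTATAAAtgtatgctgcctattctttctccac
Defa30, chr8:21134500-21134649: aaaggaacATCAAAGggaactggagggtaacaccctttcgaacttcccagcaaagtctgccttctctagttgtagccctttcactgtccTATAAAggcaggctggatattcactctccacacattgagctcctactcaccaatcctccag
Defa35, chr8:21064888-21065037: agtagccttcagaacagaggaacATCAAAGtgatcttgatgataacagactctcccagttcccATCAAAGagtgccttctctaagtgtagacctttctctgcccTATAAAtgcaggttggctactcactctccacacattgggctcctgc
Defa36, chr8:21427278-21427427: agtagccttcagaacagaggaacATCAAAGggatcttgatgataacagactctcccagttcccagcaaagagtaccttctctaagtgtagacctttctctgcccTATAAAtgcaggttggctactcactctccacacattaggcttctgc
The full promoters of Defa35 and Defa36 were 98% identical, and those of Defa21 and Defa22 had the same 300 bases. Defa2 and Defa20 were also identical there, as were Defa36 and Defa37, and Defa22 and Defa2 were 97.7% identical. The lowest identity was 55.1%, between Defa35 and Defa28. Defa22 and Defa2 carried 2 core motifs, as did Defa35, and Defa36 carried 1.

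Levels are given in 2 scales. Transcript levels scaled to the library and to gene length (TPM), as deposited, serve to compare genes. Read counts scaled to library size with factors from the trimmed mean of M values (TMM), called CPM below, serve to compare libraries. Libraries held between 16541635 and 25170966 counted reads, and 3 reads corresponded to between 0.103 and 0.204 CPM. Of the 26 members, 22 reached 1 TPM in at least 1 library and were tested among 16208 genes, and Defa27, Defa31, Defa36 and Defa37 did not, with 0 to 2 reads in any library. A gene was called when its adjusted p in edgeR's quasi-likelihood test was under 0.05 and its change was over 1 on the log2 scale. Tumoroids and organoids expressed Epcam and Cdh1, and no fibroblast marker reached the filter. Among 11 rows for 10 myeloid markers, C1qb and Tyrobp had no read in any library, while Cd14, Cd68 and Csf1r were higher in tumoroids (below).

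In organoids of normal intestine, Defa24 was the highest member, at 11350 ± 941 TPM (SD over 6 libraries). These are 3 replicate pairs across the media, and same-numbered libraries deviated together, so this SD and those below do not describe 6 independent cultures. Defa30 (2978 ± 370 TPM), Itln1 (2708 ± 376 TPM) and Lyz1 (2270 ± 221 TPM) followed. The SD ranges of Defa30 and Itln1 overlapped, as did those of Itln1 and Lyz1. Defa17 (698 ± 107 TPM), Ang4 (435 ± 129 TPM), AY761184 (305 ± 84 TPM) and Defa29 (204 ± 72.1 TPM) came next. Defa22, Defa21, Defa5 and Defa26 lay between 122 and 171 TPM and could not be ranked, since their SDs ran from 21.4 to 96. Lower still came Defa34 (93.7), Mptx2 (88.2), Defa20 (61.9), Defa2 (47.8) and Defa3 (16.2). Defa28, Defa32, Mptx1 and Defa35 were between 1.45 and 6.68 TPM, and Lyz2 was at 0.492 TPM. The lysozyme of these organoids was therefore counted almost wholly as Lyz1. Lyz2 had between 1 and 10 reads per organoid library and 1, 0 and 3 in tumoroids, so no fold is given for it.

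**Figure D1:**
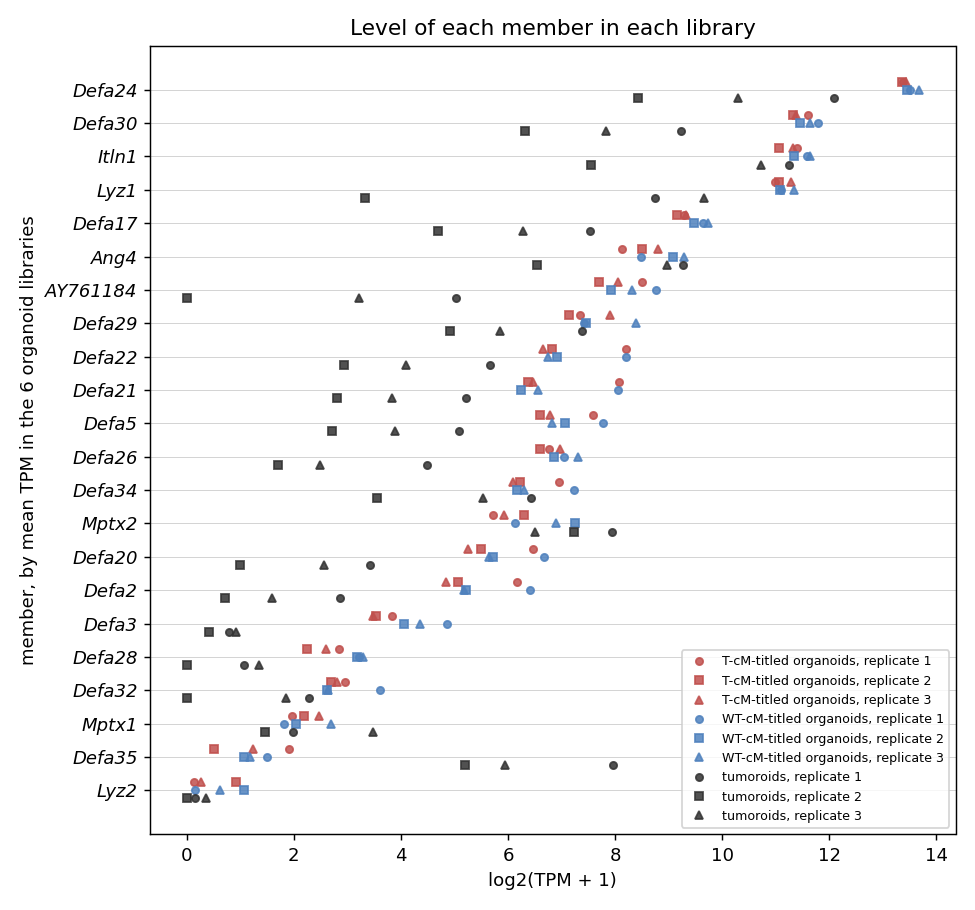
Level of each of the 22 tested members in each library, as log2(TPM + 1), with members ordered by their mean in organoids, colours for the 3 groups and marker shapes for replicates. The 3 tumoroid points lie left of the 6 organoid points for most Defa genes and Lyz1, Defa35 lies to the right, Itln1, Defa29 and Defa34 overlap on this scale (tumoroid 1 is above T-cM-titled replicate 2 in each), and tumoroid replicate 2 (black squares) is the lowest of the 3 for most members.

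Replicate 1 of the organoids differed from replicates 2 and 3 in a subset of the defensins, in both media. Defa21 was at 43.4 CPM in T-cM-titled replicate 1, against 13.8 and 15.4 CPM in replicates 2 and 3. It was at 42.1 CPM in WT-cM-titled replicate 1, against 12.9 and 17 CPM. The replicate 1 value was thus 2.97 times the mean of the other two in the first medium and 2.81 times in the second. Defa22 (2.62 and 2.33 times), Defa2 (2.22 and 2.12), Defa20 (2.02 and 1.79), Defa5 (1.75 and 1.6) and Defa34 (1.64 and 1.78) followed the same direction. These 6 of the 22 members exceeded a ratio of 1.5 in both media, and all 6 were at most 59.7% unique in sequence. Defa24 (0.925 and 0.852 times), Defa30 (1.12 and 1.05), Defa26 (0.925 and 0.855) and Lyz1 (0.825 and 0.822) did not share this pattern, nor did Defa17 (0.97 and 0.906), which is only 9.4% unique, while AY761184, which is 100% unique, stood at 1.43 and 1.38 times. Ang4, at 0.65 and 0.543 times, Mptx2, at 0.71 and 0.458 times, and Defa29, at 0.797 and 0.595 times, went the other way. Of the 5 stem cell markers, all 5 were highest in replicate 1 of their own medium, and 4 were above replicates 2 and 3 of both media. Olfm4 was at 101 and 157 CPM there (T-cM-titled and WT-cM-titled), against 9.36 to 19.1 CPM in replicates 2 and 3, Smoc2 at 57.4 and 85.6 against 21.6 to 47.7 CPM, and Axin2 at 48.2 and 61.8 against 26.2 to 32.9 CPM. The exception was Lgr5, at 0.846 and 1.76 against 0.136 to 1.11 CPM, and the progenitor gene Sox9, outside that list, was at 22.4 and 27.8 against 18.4 to 26.9 CPM. The mouse, the culture and any copy-specific counting of reads cannot be told apart here, and none was tested.

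**Figure D2:**
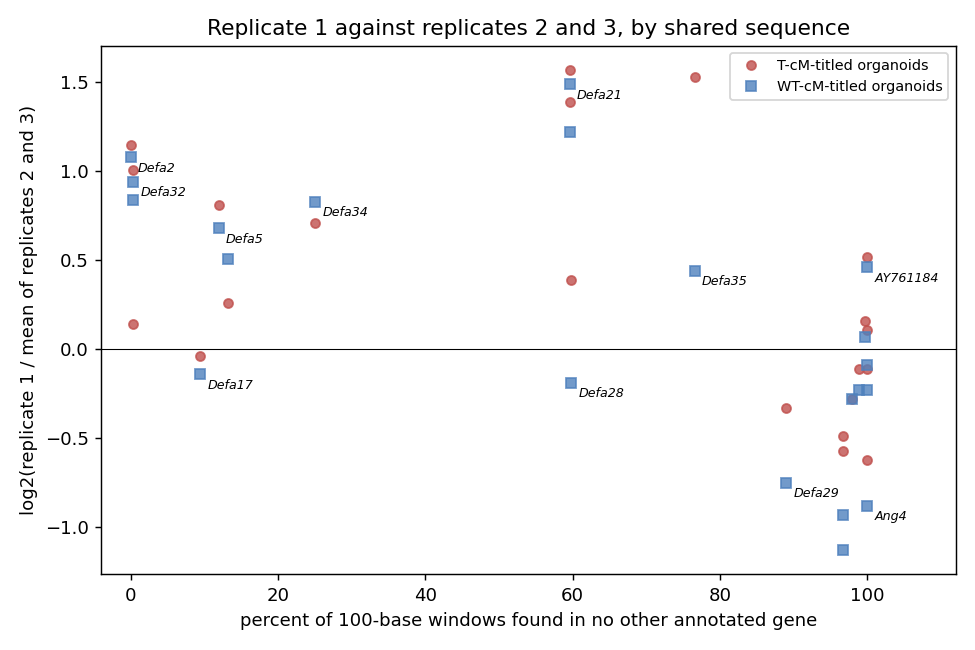
For 21 members (Lyz2, with at most 10 reads, is left out), the log2 ratio of organoid replicate 1 to the mean of replicates 2 and 3, in each medium, against the percent of 100-base windows of the transcript found in no other annotated gene. Points above 1 are Defa21, Defa22, Defa2 and Defa20, with Defa35 in 1 medium on 8 reads, and members over 80% unique lie between -1.13 and 0.52.

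The first comparison set normal organoids after 24 hr in medium from tumoroids against those in medium from organoids. These media differed in R-spondin and conditioning time as well as in source cells. No member was called, where 1.1% of all genes tested were (179 of 16208), and 13 of the 22 had an unadjusted p under 0.05 (22% of all genes). limma voom and DESeq2 also called none. The differences were small and pointed one way. Of the 22 members, 20 were lower in T-cM-titled organoids, 16 in all 3 replicate pairs (22.3% of all genes), and 4 (Defa3, Defa17, Defa28 and Itln1) without overlap between the groups on CPM (5.28% of all genes), of which Itln1 overlapped in TPM. The members' median log2 difference was -0.26, beside 0.00 for all genes tested.

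At an adjusted p under 0.05 with no fold threshold, 6 members were lower and none higher, where 5.05% of all genes were lower. Mptx2 stood at 16, 25.2 and 19.8 CPM in T-cM-titled replicates 1, 2 and 3, and at 20.9, 50.2 and 41.3 CPM in the WT-cM-titled ones. It was lower in each pair, although the groups overlapped, with a log2 difference of -0.82 (SE 0.12, adjusted p = 1.3e-05 by edgeR). Ang4 was at 76.8, 104 and 133 CPM against 96.2, 160 and 194 CPM, again lower in each pair, by -0.49 (SE 0.08, adjusted p = 1.4e-04). Defa3 was at 2.12, 1.76 and 1.75 CPM against 4.4, 2.68 and 3.5 CPM without overlap (log2 difference -0.89, SE 0.23, adjusted p = 0.011). Its near-identical copy Defa17 was at 96.3, 92 and 107 CPM against 120, 117 and 148 CPM (log2 difference -0.37, adjusted p = 0.0026). Itln1 was at 1199, 993 and 1228 CPM against 1327, 1231 and 1593 CPM (log2 difference -0.26, adjusted p = 0.013). Defa29 was at 31.9, 29 and 51.2 CPM against 33.1, 37 and 74.3 CPM (log2 difference -0.31, adjusted p = 0.045). Of the 6, 4 passed by limma voom and by DESeq2, where Defa29 (adjusted p = 0.11 and 0.15) and Defa3 (0.057 and 0.16) did not. Lyz1 hardly differed, at 1001, 1097 and 1330 CPM against 1054, 1137 and 1428 CPM (log2 difference -0.06, SE 0.07, adjusted p = 0.68). Defa24, at 1728, 1785 and 1952 CPM against 1855, 1956 and 2398 CPM, was lower in each pair by -0.16 on the log2 scale (adjusted p = 0.14).

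The other abundant defensins were also a little lower without passing the test. Defa30 was at 482, 414 and 444 CPM against 535, 463 and 558 CPM (log2 difference -0.20, adjusted p = 0.083), and AY761184 at 70.3, 42.5 and 56.1 CPM against 83.4, 50.4 and 70.2 CPM (-0.26, adjusted p = 0.055). Defa26 was at 15.7, 14.5 and 19.4 CPM against 18.6, 17.8 and 25.6 CPM (-0.31, adjusted p = 0.082). These 3 were lower in every pair. The 2 that were not lower were Defa21 (log2 difference 0.01) and Defa35 (0.08, on 1 to 8 reads per library). Summed over the 19 Defa members, T-cM-titled organoids had 2522, 2410 and 2649 CPM (2527 ± 120) and WT-cM-titled ones 2742, 2677 and 3294 CPM (2904 ± 339), lower in each pair and without overlap between the groups, though the nearest libraries lay close. Markers of other cells differed between the same libraries, on adjusted p alone. Among stem cell markers Smoc2 (log2 difference -0.61) and Ascl2 (-0.66) were lower in T-cM-titled organoids, among enteroendocrine markers Chga (-0.48) and Chgb (-0.30), and the antimicrobial lectin Reg3g by -0.81. Of the enterocyte markers, Fabp1 was lower (-0.61) and Alpi higher (0.75, adjusted p = 4.3e-08). Their part in the lower values of the members was not tested. Without the replicate block in the model no gene was called, and the lowest adjusted p of any member was 0.82. Leaving out replicate 2 left 1 gene called in all and no member below an adjusted p of 0.31, and leaving out replicate 1 brought Mptx2 past the fold threshold (-1.01).

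**Figure D3:**
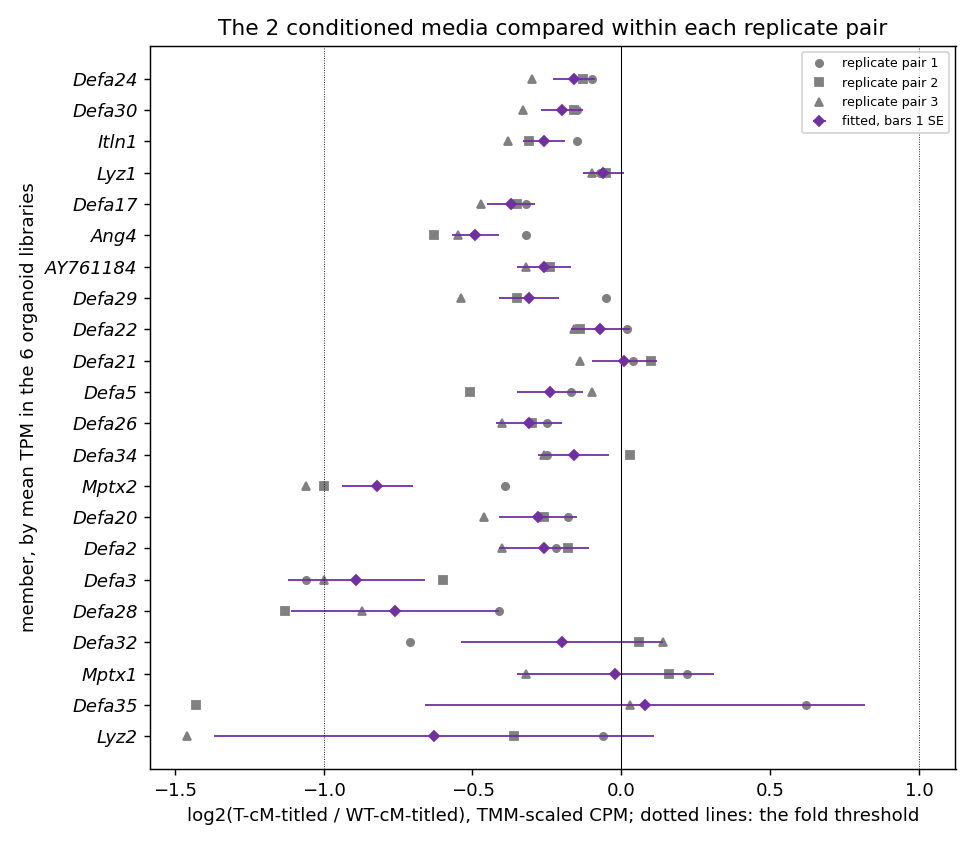
Log2 ratio of T-cM-titled to WT-cM-titled organoids for the 22 tested members, as the 3 replicate pairs (grey) and the fitted value with its SE (purple), with the fold threshold as dotted lines. Most points lie slightly left of 0, Mptx2, Defa3 and Defa28 lie furthest left among members with steady pairs, and no fitted value crosses the threshold.

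The other comparisons set tumoroids against each organoid group. Both share the tumoroid libraries, so their values are given side by side and are not independent. Against WT-cM-titled organoids, 14 of the 22 members fell (11.6% of all genes) and 1 rose (18.2% of all genes). Against the T-cM-titled group 13 fell (11.8% of all genes) and 1 rose (19.4% of all genes). The 3 tumoroids lay below all organoid libraries without overlap for 17 members in each comparison (22.5% and 23.8% of all genes), and above them for 1 (28.2% and 30.1% of all genes). These counts are on CPM. In TPM, Defa34 overlapped in both comparisons (85.1 TPM in tumoroid 1, above 4 organoid libraries), and Itln1 and Defa29 overlapped against the T-cM-titled group. The members' median log2 difference was -3.18 and -2.91, beside 0.15 and 0.16 for all genes tested. In bulk RNA, fewer Paneth cells and less of each product per cell cannot be told apart.

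Defa24, the main cryptdin of these cultures, was at 555, 38.5 and 147 CPM in tumoroids 1, 2 and 3. The organoid libraries held between 1728 and 2398 CPM, so the groups were far apart, and tumoroid 2 was the lowest by a wide margin. The log2 change was -3.07 against the WT-cM-titled group (SE 0.75, adjusted p = 0.0089) and -2.88 against the T-cM-titled group (SE 0.74, adjusted p = 0.011). Defa30 was at 72.8, 8.4 and 25 CPM, against 414 to 558 CPM in organoids, and fell, with log2 changes of -3.88 and -3.66 (adjusted p = 0.001 and 0.0013). Defa17 was at 22.3, 2.64 and 8.55 CPM against 92 to 148 CPM, a change of -3.53 and -3.15. In all 3 genes the tumoroids kept the same order, with the first highest and the second lowest. The size of these changes depends on tumoroid 1 and, for Defa24, on the method. By limma voom those of Defa24 were -3.80 and -3.63. Without tumoroid 1, the 2 changes were -4.48 and -4.30 for Defa24, -4.95 and -4.74 for Defa30 and -4.51 and -4.13 for Defa17.

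AY761184, the relative of Defa29, had no read in tumoroid 2 and was at 4.85 and 1.17 CPM in tumoroids 1 and 3, against 42.5 to 83.4 CPM in organoids. It fell, with log2 changes of -5.12 and -4.85 (SE 0.96 and 0.95, adjusted p = 0.0022 and 0.0027), or -7.21 and -6.94 by limma voom. Defa29 itself was at 25.8, 3.98 and 8 CPM against 29 to 74.3 CPM. Its change was -1.94 against the WT-cM-titled group (adjusted p = 0.029) and -1.57 against the T-cM-titled group (adjusted p = 0.06), so only the first was called by edgeR. The first call was lost without tumoroid 3 (adjusted p = 0.071) or without WT-cM-titled replicate 3 (0.11). The second change ranged from -2.64 to -1.17 with a library left out, and limma voom and DESeq2 called it (below). Defa3 rested on 2, 1 and 3 reads in tumoroids, at or under 3 reads in each, against 26 to 80 reads in organoids, and its fitted change, which at so few reads depends on the prior count, was -5.41 and -4.51 (adjusted p = 3.7e-05 and 8.6e-05). Defa28 had 3, 0 and 5 reads against 9 to 35, with a fitted change of -3.68 and -2.90. Defa26 was at 2.45, 0.223 and 0.481 CPM against 14.5 to 25.6 CPM and fell, with log2 changes of -4.33 and -4.01, or -5.01 and -4.69 by limma voom. On log2(TPM + 1), which understates the change of low genes, those of Defa3 were -3.72 and -2.91 and those of Defa28 -2.42 and -1.75. Without tumoroid 1 the changes were -6.82 and -6.55 for AY761184, -5.84 and -5.52 for Defa26 and, against the WT-cM-titled group, -3.01 for Defa29. Without tumoroid 3 those of Defa28 were -4.34 and -3.57.

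Among the copies that reads tell apart less well, Defa21, Defa22, Defa2 and Defa20 also fell. Defa21 was at 4.62, 0.669 and 1.55 CPM in tumoroids against 12.9 to 43.4 CPM in organoids (log2 change -3.41 and -3.42), and Defa22 at 6.34, 0.744 and 1.89 CPM against 17.5 to 47.9 CPM (-3.30 and -3.25). Defa2 was at 0.816, 0.0744 and 0.24 CPM against 4.96 to 13.7 CPM (-4.58 and -4.33, or -3.87 and -3.63 on log2(TPM + 1)). Defa20, its near-copy, was at 1.27, 0.112 and 0.584 CPM against 6.65 to 16.4 CPM (-4.16 and -3.89). All 4 were called in both comparisons, with adjusted p between 0.001 and 0.0064. Without tumoroid 1 their changes lay between -5.75 and -4.40, and without organoid replicate 1 those of Defa21 were -2.75 and -2.69 and that of Defa22 against the T-cM-titled group -2.62. Counted as one set, Defa2, Defa20 and Defa32 came to 1.3 ± 1.21 CPM in tumoroids (n = 3), against 18.1 ± 8.02 CPM in T-cM-titled and 21.7 ± 8.84 CPM in WT-cM-titled organoids. Defa32 alone had 11, 0 and 9 reads in tumoroids and was not called, with a fitted change of -2.19 and -1.96 (adjusted p = 0.065 and 0.09). It was called lower in both comparisons by limma voom (-3.05 and -2.90, adjusted p = 0.028 and 0.036) and DESeq2 (0.022 and 0.041), and against the WT-cM-titled group without tumoroid 1 (-2.92, adjusted p = 0.042) or tumoroid 2 (-1.62, adjusted p = 0.037).

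**Figure D4:**
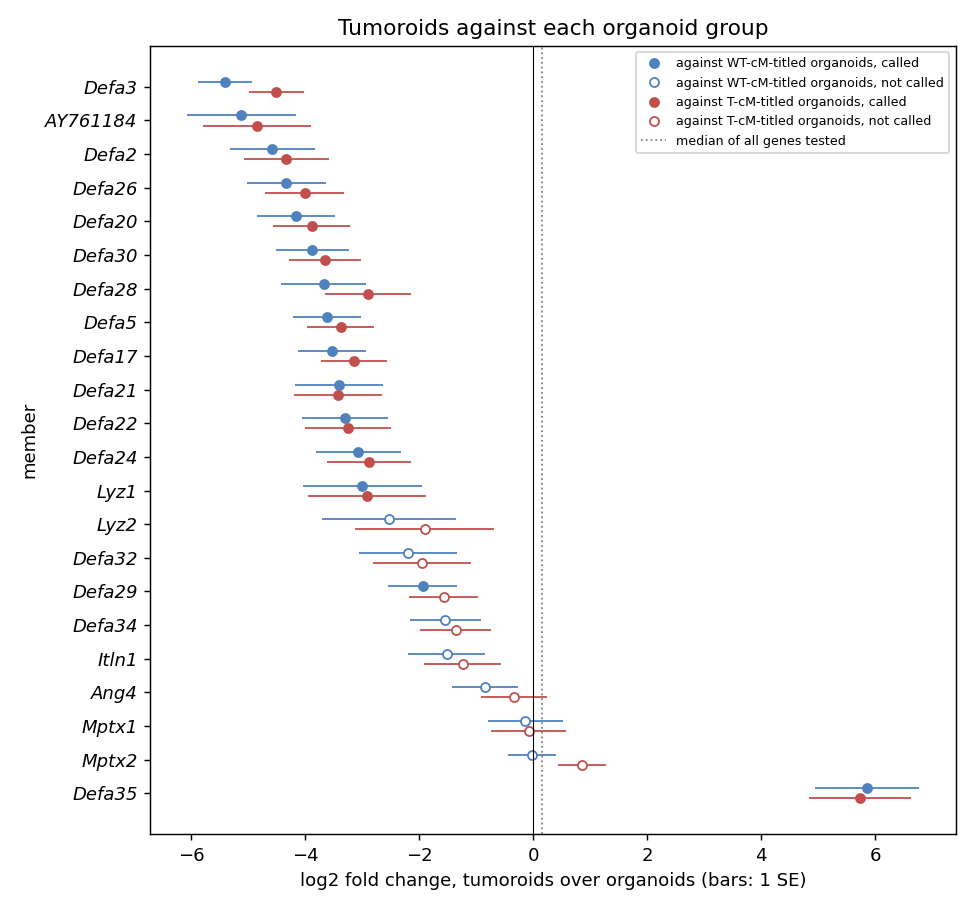
Log2 fold change of the 22 tested members in tumoroids over the WT-cM-titled (blue) and the T-cM-titled (red) organoid group, with bars of 1 SE, filled points for called genes and a dotted line for the median of all genes. Defa3 and AY761184 lie furthest left, Mptx1, Mptx2 and Ang4 lie near 0, and Defa35 alone lies far to the right, at 5.86 and 5.74.

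Defa35 went against the rest of the cluster. It was at 30, 3.83 and 6.7 CPM in tumoroids 1, 2 and 3 (663, 103 and 195 reads), and between 0.0678 and 0.423 CPM in organoids (1 to 8 reads). Each tumoroid was thus above every organoid, while the order among tumoroids was that of Defa24. The log2 change was 5.86 (SE 0.91, adjusted p = 7.5e-04) against WT-cM-titled and 5.74 (SE 0.90, adjusted p = 7.9e-04) against the T-cM-titled group, and it lay between 4.39 (without tumoroid 1) and 6.42 (without T-cM-titled replicate 1) when a single library was left out. It was 5.12 and 5.15 on log2(TPM + 1), and 5.13 by limma voom against the WT-cM-titled group. Its close copies did not follow. Defa5, 98.9% identical in coding sequence, was at 3.81, 0.558 and 1.44 CPM against 14.7 to 31.4 CPM and fell, with log2 changes of -3.62 and -3.38 (adjusted p = 0.0011 and 0.0015), or -4.54 and -4.30 without tumoroid 1. Defa34 was at 9.74, 1.08 and 4.77 CPM against 10.7 to 21.3 CPM, with a change of -1.54 and -1.36 that was not called (adjusted p = 0.073 and 0.1). Other fits called Defa34 lower in both comparisons: limma voom (-2.01 and -1.86, adjusted p = 0.027 and 0.039), DESeq2 (0.025 and 0.048), and edgeR without tumoroid 1 (-2.36 and -2.18, adjusted p = 0.016 and 0.021). Defa36, which shares the most windows with Defa35, and its copy Defa37 had no read in any tumoroid and at most 1 read in an organoid library. The 76.6% of Defa35 windows that are unique were counted on the reference annotation, and how reads were placed among the copies in the tumoroid mice was not tested. The mouse strain is given as MIX for tumoroids and C57BL/6 for organoids in the labels, the methods give a mixed background for both, and the part of strain was not tested.

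The make-up of the Defa reads also differed between tumoroids and organoids. Defa24 kept much the same share, 72.1% ± 3.09 and 71.2% ± 3.04 in the T-cM-titled and WT-cM-titled groups and 69.9% ± 6.17 in tumoroids (SD, n = 3 each), with overlapping libraries. Defa30 made up 9.89%, 13.8% and 12.1% of the Defa reads of tumoroids 1, 2 and 3, and between 16.8% and 19.5% in organoids. Defa35 made up 4.08%, 6.3% and 3.24%, and at most 0.0168% in organoids. Defa29 made up 3.5%, 6.54% and 3.87%, against 1.2% to 2.26% in organoids, and Defa34 made up 1.32%, 1.77% and 2.31%, against 0.389% to 0.776%. These shares were not tested, and a share moves whenever another member does. The sum over the 19 Defa members was 736, 60.8 and 207 CPM in tumoroids (335 ± 355), below every organoid library, a log2 ratio of group means of -3.12 and -2.92. All 26 members together took 0.131% ± 0.107 of the reads in tumoroids, against 0.453% ± 0.0333 in the T-cM-titled group and 0.526% ± 0.062 in the WT-cM-titled group.

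**Figure D5:**
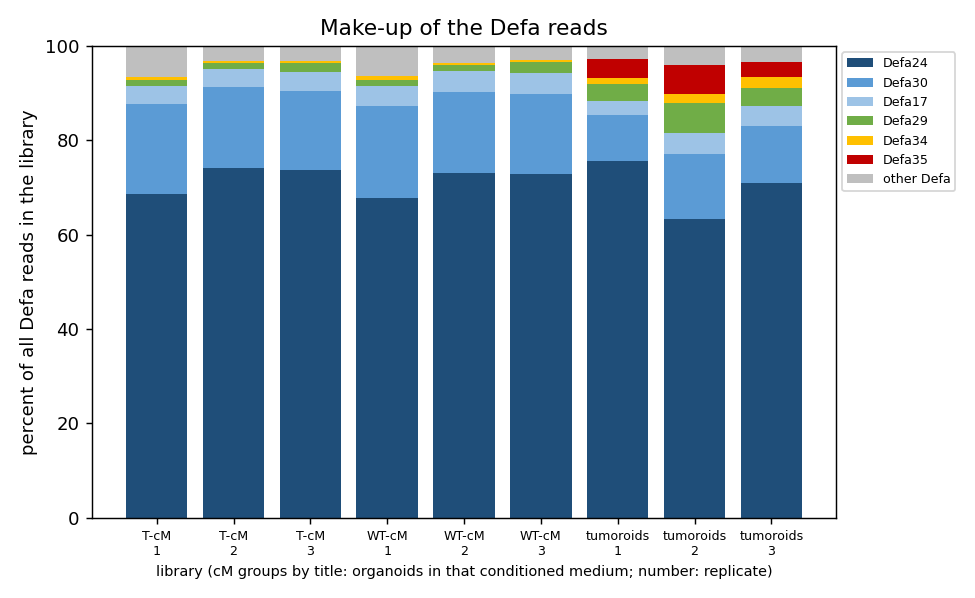
Share of all reads on the 19 Defa members taken by 6 of them and by the other members together, as stacked bars from 0 to 100% for each library. Defa24 takes most of every bar, the Defa35 part (red) is visible only in the 3 tumoroids, and the grey part is largest in replicate 1 of both organoid groups.

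The members outside the cluster did not move as one. Lyz1 was at 165, 3.05 and 286 CPM in tumoroids against 1001 to 1428 CPM in organoids. Here tumoroid 3 was the highest, unlike for the defensins, and tumoroid 2 was again the lowest. Lyz1 fell 7.98-fold against the WT-cM-titled group (SE 1.04 on the log2 scale, adjusted p = 0.042) and 7.56-fold against the T-cM-titled group (SE 1.04, adjusted p = 0.044). The call rests on every library but tumoroids 2 and 3: it was lost without tumoroid 1 (adjusted p = 0.097 and 0.1) and without any 1 of the organoid libraries compared (0.065 to 0.092). Without tumoroid 3 the log2 changes were -3.87 and -3.80. The size also depends on the method: limma voom gave -4.52 and -4.45 and limma on log2(TPM + 1) gave -3.93 and -3.87, larger than by edgeR, and both called Lyz1 in each comparison. Itln1 was at 849, 57.3 and 542 CPM against 993 to 1593 CPM, without overlap on this scale, with a change of -1.52 and -1.24 that was not called (adjusted p = 0.1 and 0.17). Itln1 passed against the WT-cM-titled group by DESeq2 with all libraries kept (-1.57, adjusted p = 0.032), and by edgeR without tumoroid 2 (-1.01, adjusted p = 0.0088) or without tumoroid 1 (-2.21, adjusted p = 0.045). By limma voom it was -2.20 there and did not pass (adjusted p = 0.056). Against the T-cM-titled group it ranged from -1.93 to -0.73 with a library left out.

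Ang4 was at 134, 17.5 and 98.7 CPM in tumoroids, against 76.8 to 194 CPM in organoids, so that 2 of the 3 tumoroids lay inside the organoid range (log2 change -0.85 and -0.33, adjusted p = 0.27 and 0.68). Mptx2 was at 59.1, 31.7 and 19.8 CPM against 16 to 50.2 CPM, with a change of -0.02 (SE 0.42, adjusted p = 0.97) against WT-cM-titled and 0.86 (SE 0.42, adjusted p = 0.12) against the T-cM-titled group. It was the one abundant member that was not lowest in tumoroid 2. Without tumoroid 3, Mptx2 was called higher than in T-cM-titled organoids (1.14, adjusted p = 0.036). Mptx1 stayed between 0.372 and 2.27 CPM in all 9 libraries.

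Other genes of the Paneth cell and of its lineage were taken from lists chosen with earlier results known. Of 14 other Paneth-associated genes, 4 rose and 2 fell in tumoroids in each comparison. Over all genes, 18.2% rose and 11.6% fell against WT-cM-titled organoids, and 19.4% and 11.8% against T-cM-titled ones. Mmp7, the convertase of the cryptdins, was at 264, 91.1 and 523 CPM in tumoroids against 62 to 98.6 CPM in organoids, and rose (log2 change 1.80, SE 0.49, adjusted p = 0.014, and 2.17, adjusted p = 0.0058). Tumoroid 2 lay within the organoid range for it. Ephb3, a receptor that holds Paneth cells at the crypt base, rose by 1.46 and 1.51, and Nupr1 by 3.97 and 3.77. Fzd5, the Wnt receptor needed for Paneth cell maturation, fell, with log2 changes of -2.28 and -2.43. Pla2g2a, at 15.3, 6.02 and 5.87 CPM against 4.56 to 8.63 CPM, was not called. Between the 2 media none of the 14 was called, and Mmp7 (-0.35, adjusted p = 0.015) and Reg4 (0.46, adjusted p = 9.4e-05) were among 3 that passed on adjusted p alone, with opposite signs.

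Of 14 regulators of secretory cells, 4 rose and 3 fell in tumoroids in each comparison. For every count in this paragraph, the shares over all genes were 18.2% and 19.4% higher and 11.6% and 11.8% lower. Sox9, required for Paneth cells and also active in crypt progenitors, rose by 2.24 and 2.21. Atoh1, which commits cells to the secretory lineage, was at 5.76, 1.26 and 4.19 CPM against 8.63 to 10.3 CPM and fell, with log2 changes of -1.35 and -1.40 (adjusted p = 0.033 and 0.028). Spdef, which acts in Paneth and goblet cell maturation, fell, with log2 changes of -1.91 and -2.11 (adjusted p = 0.003 and 0.0017). Gfi1, at 1.5, 0.595 and 1.68 CPM against 0.753 to 3.02 CPM, was not called. Of 4 tested gene models of the defensin cluster outside the rule, Gm14851 and Gm7861 fell. Gm14851, which shares 45 windows with Defa29, was at 2.67, 0.409 and 1.96 CPM against 140 to 215 CPM, a change of -6.79 and -6.42. Of 13 tested antimicrobial genes outside the rule, 6 rose and 4 fell. The lectins Reg3b and Reg3g rose by 4.99 and 2.65 against WT-cM-titled organoids while Reg3a fell, with a log2 change of -7.06, so antimicrobial genes as a whole did not fall together.

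Markers of other cell types moved in the same libraries. In tumoroids against WT-cM-titled organoids, 18.2% of all genes rose and 11.6% fell. All 5 enterocyte markers, 4 of 5 goblet markers and 1 of 4 enteroendocrine markers fell. Of the tuft markers 1 of 3 rose, and of the stem cell markers 4 of 5 rose. The other stem cell marker, Olfm4, was at 19.4, 1.9 and 4.74 CPM in tumoroids against 9.36 to 157 CPM in organoids. Its log2 change of -2.85 was not called (adjusted p = 0.098 by edgeR). Summed enterocyte markers were between 13891 and 26626 CPM in organoids and between 34.2 and 233 CPM in tumoroids, and summed goblet markers between 2033 and 2226 and between 190 and 587 CPM. Summed stem cell markers were between 69.1 and 314 CPM in organoids and between 488 and 655 CPM in tumoroids. Summed myeloid markers were between 5.61 and 8.94 CPM in organoids and between 47 and 220 CPM in tumoroids. Cd14, Cd68 and Csf1r were the 3 that reached the filter. All 3 were called higher against WT-cM-titled organoids (log2 changes of 4.49, 3.75 and 3.00). Against T-cM-titled organoids Csf1r was not called. Lyz2, the myeloid lysozyme, stayed at or under 3 reads in each tumoroid. Of the 5 epithelial markers, 1 rose and 1 fell. The part of these differences in cell make-up in the lower defensins was not tested.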

How the data were processed

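Poly(A) RNA of 9 libraries was prepared with a stranded kit and sequenced as paired reads of 100 bases. The authors aligned reads to mm10 with STAR and counted them on Gencode genes. Raw counts per gene and TPM were deposited by the authors, and replicates were not pooled. The counting tool, its strand setting, its treatment of reads that match several genes and the gene lengths behind the TPM are not given in the sources used here. Samples were grouped by title.

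Genes with at least 1 TPM in at least 1 library (16208) were tested on the counts with edgeR 4.0.16 (quasi-likelihood, TMM factors) and Benjamini-Hochberg adjustment over all of them. The 2 organoid groups were compared in a model blocked on the replicate number, which is the study's own design. Deviations of same-numbered organoid libraries from their group means correlated at 0.73, 0.552 and 0.742. Tumoroids were compared in a fit of all 9 libraries without a block. Between the media, p-values rest on the spread left within replicate pairs, since the block takes out differences between the pairs. They do not measure the spread between mice. For tumoroids, p-values cover the spread between these cultures of 3 mice per group. No pair of libraries within a group agreed within sampling noise, and pairs across groups were not compared. Alternatives used limma 3.58.1, DESeq2 1.42.0, other factors, filters and left-out libraries, and the edgeR fit was tested on simulated data.

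Members and gene lists were chosen with earlier results of these data known. Every member could be named, with library values for those at 10 TPM or more in a group or called in any comparison. Of other lists, counts are given with at most the 5 genes of smallest p, plus Mmp7, Atoh1, Gfi1, Spdef, Sox9 and Pla2g2a. Shared sequence was counted with Biopython 1.88 on annotated transcripts.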

Additional observations from a re-analysis of the deposited data

How the results depend on the processing

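Between the media, the count of genes called depended on the settings. Against 179 genes with the replicate block, it was 1634 on adjusted p alone, 118 by limma voom, 93 by DESeq2, 0 by limma on log2(TPM + 1) (2690 genes and 10 members at an unadjusted p under 0.05) and 0 with no replicate block (904 genes and 3 members). It ranged from 1 to 385 when 1 replicate pair was left out. The members called were 6 on adjusted p alone and 0 to 1 with a pair left out. The members that passed on adjusted p alone were 4 by limma voom and by DESeq2, 5 by the quasi-likelihood method of edgeR 4, 7 with no TPM filter, and 10, 0 and 2 without replicates 1, 2 and 3. The cause was not tested. Signs turned for members with changes near 0. Between the media, limma on log2(TPM + 1) gave Mptx1 0.02 and Defa35 -0.03. With a pair left out, Mptx1 ranged from -0.13 to 0.19, Defa21 from -0.04 to 0.07, Defa35 from -0.38 to 0.36 and Defa32 from -0.38 to 0.11.

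For tumoroids set against each organoid group (WT-cM-titled first), 13 to 17 members were called under every alternative, and Defa35 rose and Defa24 fell in each that gave an adjusted p. Beside the block, limma voom and DESeq2 called Defa32 and Defa34 in both, DESeq2 also Itln1 in the first, edgeR 4 and log2(TPM + 1) Defa32 in both, and the fit with no TPM filter Defa34 in the first. Defa29 was called in the second by limma voom, DESeq2 and with no TPM filter (adjusted p = 0.019, 0.016 and 0.032). Leaving out tumoroid 1 moved most defensin changes by over 1.5 times. DESeq2 gave none for Defa24. With the replicate block over the 9 libraries, 17 were called in each, Defa32 and Defa34 being added in both and Defa29 in the second. Deviations of same-numbered tumoroid and organoid libraries correlated at -0.049 to 0.253. Such correlations cannot show whether a tumoroid culture was the source of the same-numbered medium. On log2(TPM + 1), Mptx1 was 0.13 and 0.10, Mptx2 was 0.46 against WT-cM-titled organoids and was called against T-cM-titled ones (1.24, adjusted p = 0.02 by limma). With a library left out, Mptx2 ranged from -0.54 to 0.26 in the first comparison, Mptx1 from -1.20 to 0.32 and from -1.14 to 0.32, and Ang4 from -0.85 to 0.13 in the second, above 0 without tumoroid 2. Summed Defa counts were lower by -2.73 and -2.51 (log2) with raw library totals, and by -2.73 and -2.52 with totals that leave out the members. The higher and lower calls over all genes were 2953 and 1881 in the first comparison and 3139 and 1918 in the second. On log2(TPM + 1) they were 3997 and 1096, and 4168 and 1146, with the median of all genes at 0.52 and 0.51. At these depths, members at 3 reads or fewer per library (Defa3 and Lyz2 in tumoroids, Defa27, Defa31, Defa36 and Defa37) carry no firm fold.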
